A study of Danio rerio with 6 samples.

Results

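The Sox transcription factors of the neural crest and pigment lineage were followed in zebrafish melanoma cells with and without resistance to a BRAF inhibitor. The members are 10 genes taken by name: sox10, sox9a, sox9b and sox8b of the SoxE group, sox5 and sox6 of the SoxD group, sox2 and sox3 of the SoxB group, and sox4a and sox11a of the SoxC group. All 10 have a row among the 27126 gene names of the count table, which holds 25 rows of sox genes from the members and a further list. Of these 10 members, 9 passed the filter on low counts and sox3 did not.

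RNA was sequenced from 3 libraries of ZMEL1 and 3 of ZMELR1, which the study describes as independent biological replicates. ZMEL1 was grown from a single melanoma of a fish that carried oncogenic BRAF under the mitfa promoter, was p53-/- and mitfa-/-, and received mitfa back from a miniCoopR cassette. ZMELR1 is the population that grew out of ZMEL1 over months in a BRAF inhibitor, for which the sources name both vemurafenib and PLX4720. The germline and transgene genotype is therefore shared by both lines, and counts of mitfa cannot separate the mutant gene from the cassette. At RNA isolation ZMEL1 was kept in DMSO and ZMELR1 in PLX4032 (vemurafenib) at 1 μM, both at 28.5 °C in 10% serum. The history of selection and the presence of the drug cannot be told apart, and each line is 1 culture lineage.

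Sox proteins bind DNA through an HMG box and work with partner factors. In neural crest cells SoxE factors maintain the progenitors, and Sox10 then activates mitfa, the master regulator of melanocytes, as well as the genes of glia. Sox9 drives cartilage together with the SoxD factors Sox5 and Sox6, which lack an activation domain and modulate SoxE targets. Sox2 and Sox3 hold neural progenitors in an undifferentiated state, and SoxC factors act in neurons and mesenchyme as they differentiate. In melanoma cells of human and mouse, SOX10 is a widely used lineage marker and is often set against SOX9.

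Library totals ran from 42591832 counts in ZMELR1 replicate 3 to 83741911 in ZMELR1 replicate 2. The melanocyte label fitted the markers in part. Transcripts of mitfa stood at 429 to 949 CPM (counts scaled to the size of the library, with TMM factors) in the 6 libraries. An enzyme and a matrix protein of the melanosome, tyr and pmela, were at 3.30 to 28.5 CPM and 2.07 to 25.2 CPM. The markers dct, tyrp1b and oca2 ranged from 0.804 to 28.2 CPM. In ZMEL1 slc24a5 was at most 0.391 CPM, and slc45a2, at most 0.308 CPM in any library, did not pass the filter. The melanocyte list as a whole summed to 869 to 2444 CPM. Beside mitfa its abundant genes were trpm1b (71.2 to 656 CPM), ednrba (226 to 890 CPM) and kita (85.0 to 253 CPM). Its remaining genes were lower, such as rab27a (15.1 to 38.2 CPM) and mc1r (at most 5.03 CPM). Summed over their lists, muscle markers reached at most 12.01 CPM, endothelial markers 7.20 CPM and leukocyte markers 33.7 CPM. The lists of other cell types summed higher than these. They stood at 46.9 to 128 CPM for fibroblast, 316 to 835 CPM for xanthophore, 948 to 1814 CPM for iridophore and 993 to 2400 CPM for keratinocyte markers. The fibroblast sum was led by col6a3 (21.2 to 100 CPM), and without it was at most 34.0 CPM. Largest in the xanthophore sum were slc2a11b (78.6 to 384 CPM) and mycbp2 (149 to 339 CPM), while gch2 was at 4.01 to 41.3 CPM and xdh at most 0.929 CPM. The keratinocyte sum was nearly all icn (970 to 2388 CPM), and without it was at most 34.6 CPM. The iridophore list shares ednrba with the melanocyte list and holds purine synthesis genes. Its other genes were uneven. In ZMEL1 and ZMELR1 pnp4a averaged 0.290 and 0.233 CPM, and alx4b at most 0.0343 CPM. By contrast ltk averaged 41.7 and 24.1 CPM and tfec 5.46 and 5.40 CPM. The level of alx4a fell from 34.0 to 1.76 CPM (edgeR, adjusted p = 0.00412). In ZMELR1 replicate 3 the leukocyte sum was highest through csf1ra (25.8 CPM), which is also on the xanthophore list. Without csf1ra it was 7.95 CPM there, against 9.71 CPM in ZMEL1 replicate 3. The sum of 24 proliferation genes ran from 3183 to 4128 CPM in ZMEL1, and was 2338 and 2814 CPM in ZMELR1 replicates 1 and 2 and 931 CPM in ZMELR1 replicate 3. In bulk RNA, fewer cells of a type and less RNA per cell cannot be told apart.

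Of the 9 tested members, 1 was called higher in ZMELR1 (sox9b) and 0 lower by edgeR at an adjusted p under 0.05, beside 6.29% of all 16589 tested genes called (3.62% higher and 2.68% lower). DESeq2 called 2 members higher (sox9a and sox9b) and 0 lower, beside 6.45% and 5.99% of the genes it tested. By limma-voom 1 was higher (sox9b) and 0 lower, beside 5.85% of all tested genes (3.35% higher and 2.5% lower). At an unadjusted p under 0.05 there were 6 higher and 2 lower members, beside 13.2% and 11.1% of all tested genes. The replicate numbers paired libraries across the lines. With the replicate number as a block 5 members were called higher (sox10, sox9a, sox9b, sox5 and sox2) and 0 lower, beside 12.9% and 12% of all tested genes. The CPM of the lines did not overlap for 5 members that were higher (the same 5 genes) and for 2 that were lower (sox8b and sox11a), beside 17% and 14.5% of all tested genes. The median log2 fold change over the 9 tested members was 0.55, against 0.02 over all tested genes. Each count of 2 lower members includes sox8b, which passed the filter only with its ZMEL1 libraries, the line where it is high. It lends those counts no support. The members were not chosen at random, and these counts are a description of the 9.

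**Figure D1:**
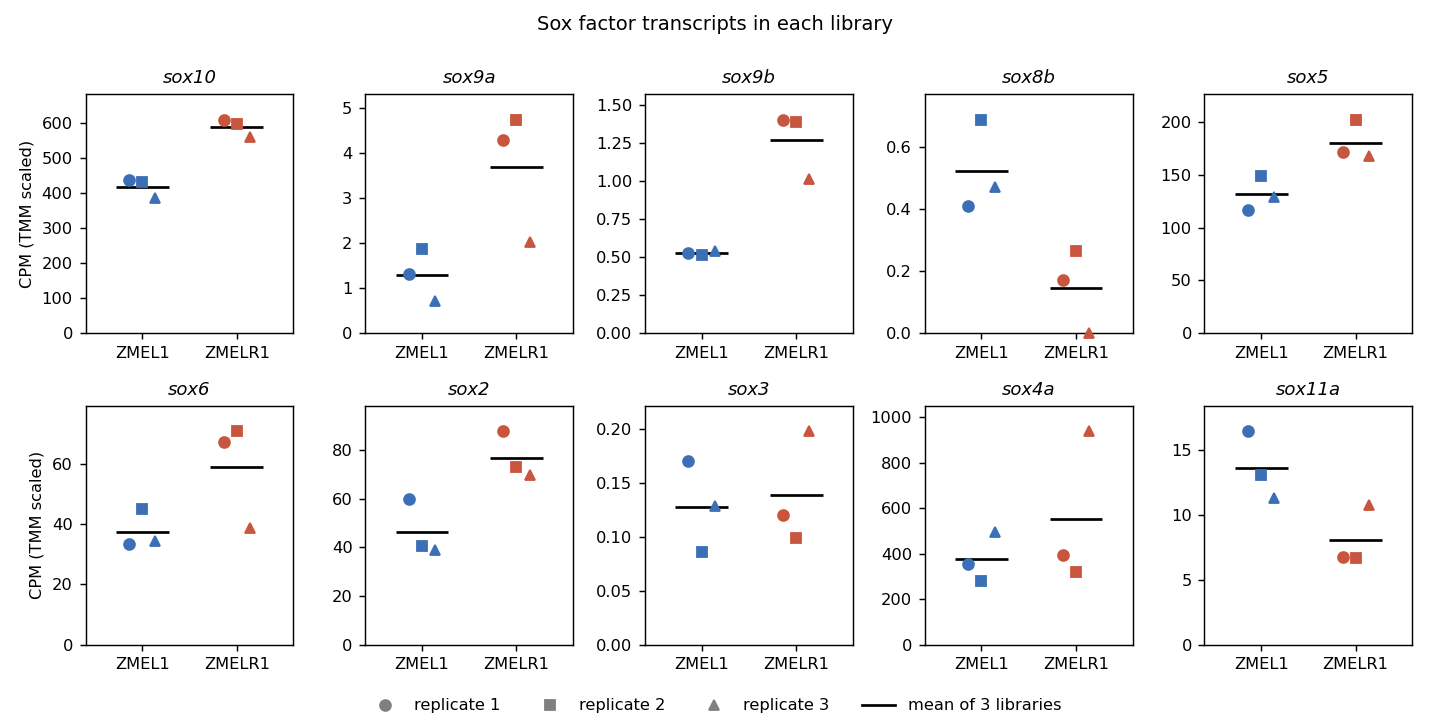
Level of each Sox member in CPM (TMM scaled, linear axis from 0, own scale per gene) in the 3 ZMEL1 and 3 ZMELR1 libraries, with the marker shape giving the replicate number and the bar the mean. The sox10 libraries separate fully (384 to 437 CPM against 558 to 608 CPM), while sox4a is dominated by replicate 3 of both lines, at 495 and 940 CPM.

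Among the SoxE genes sox10, the crest factor that activates mitfa, stood at 437, 432 and 384 CPM in ZMEL1 replicates 1, 2 and 3 and at 608, 597 and 558 CPM in ZMELR1. Every ZMELR1 library lay above every ZMEL1 library, and the spread within each line was small. The means were 417 ± 29.3 CPM (SD, n = 3) and 588 ± 26.2 CPM (SD, n = 3), a log2 fold change of 0.49 ± 0.16 (SE), or 1.41 times. The difference did not pass adjustment in edgeR without the block (adjusted p = 0.113) and passed with it (adjusted p = 0.0277). The differences between libraries of the same number were 0.48, 0.47 and 0.54 on the log2 scale. The 95% interval of the log2 fold change ran from 0.12 to 0.87.

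Transcripts of sox9a and sox9b, the zebrafish copies of the cartilage and crest factor Sox9, were scarce in both lines. Library counts of sox9a were 77, 131 and 50 in ZMEL1 and 250, 430 and 82 in ZMELR1, which is 1.31, 1.87 and 0.715 CPM against 4.28, 4.73 and 2.03 CPM. The lines did not overlap, but replicate 3 was the lowest library in each of them. For sox9a the log2 fold change was 1.51 ± 0.46 (SE), or 2.85 times, with an adjusted p of 0.102 in edgeR and 0.00843 with the replicate block. It was also called by DESeq2 (adjusted p = 0.0231), and by edgeR without ZMELR1 replicate 3 (adjusted p = 0.0496).

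Library counts of sox9b were 31, 36 and 38 in ZMEL1 and 82, 126 and 41 in ZMELR1. In CPM the ZMEL1 libraries lay close together at 0.527, 0.514 and 0.543, and the ZMELR1 libraries stood at 1.40, 1.39 and 1.02. All 3 ZMELR1 libraries were higher, and replicate 3 was again the lowest of them. The log2 fold change was 1.27 ± 0.28 (SE), or 2.41 times, with an adjusted p of 0.0434 in edgeR. This call lies at the threshold. The older quasi-likelihood fit of the same program, its default setting, gave an adjusted p of 0.0525 and left 0 members called. Leaving out ZMEL1 replicate 1, 2 or 3 gave adjusted p-values of 0.149, 0.140 and 0.115, and leaving out ZMELR1 replicate 1 or 2 gave 0.154 and 0.126, so that only the loss of ZMELR1 replicate 3 kept the call (0.0348).

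Whether the Sox9 copies changed unequally was read from their ratio within each library, which does not depend on scaling. The share of sox9b in the summed counts of sox9a and sox9b was 28.7%, 21.6% and 43.2% in ZMEL1 and 24.7%, 22.7% and 33.3% in ZMELR1. Single shares carry wide Wilson 95% intervals, such as 33.3% to 53.6% for the third ZMEL1 library and 20.4% to 29.6% for the first ZMELR1 library, and these cover counting error only. The log2 ratio of sox9b to sox9a differed by -0.27, ZMELR1 minus ZMEL1 (exact two-sided permutation test, p = 0.7, adjusted p = 0.7 over 2 ratios, smallest possible p 0.1), and without ZMEL1 replicate 3 it changed sign to 0.13. A design of 3 against 3 cannot reach 0.05 in this test. Between libraries of the same number the log2 ratio differed by -0.30, 0.09 and -0.60, so its sign was not the same in all pairs. The exact sign-flip permutation test over pairs gave p = 0.5, where the smallest possible p is 0.25. In each library sox9a and sox9b together gave 4.20, 5.53 and 3.28 counts per 1000 counts of sox10 in ZMEL1 and 9.35, 10.2 and 5.46 in ZMELR1. The third ZMELR1 library lay just below the second ZMEL1 library, so these values overlapped between the lines, while the ZMELR1 value was the higher one in all 3 replicate numbers. The ratio was formed after the values were seen and is not corrected for gene length, so only its change between libraries can be read.

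The remaining SoxE member with enough counts, sox8b, which is related to Sox10 and Sox9 and is active in crest derivatives, had the opposite sign. It was counted 24, 48 and 33 times in the ZMEL1 libraries and 10, 24 and 0 times in the ZMELR1 libraries. The 0 in ZMELR1 replicate 3 allows a level of up to 0.0743 CPM, the equivalent of 3 counts. The lines did not overlap (0.408 to 0.686 CPM against at most 0.264 CPM), yet the fitted log2 fold change of -1.64 ± 0.63 (SE) was not called, with an adjusted p of 0.170. The gene passed the filter on low counts through its ZMEL1 libraries, since all 3 reached the filter's 0.155 CPM against 2 of the ZMELR1 libraries. In the GRCz12tu assembly sox8b and sox9b are close neighbors on chromosome 3, and here they have log2 fold changes of opposite sign. The genes on both sides of sox10 in that assembly, polr2f and KCNJ4, had log2 fold changes of -0.04 and 0.22, with adjusted p-values of 0.911 and 0.709. The nearest tested genes around sox9a were all higher (SLC39A11 1.15, usp22 0.38, mapk8b 0.59 and antxr1c 0.76), and none was called. Those around sox6 were also all higher (plekha7b 1.41, rps13 0.40, PDE3B 0.83 and copb1 0.29). Of these PDE3B was called by edgeR (adjusted p = 0.0188). Around sox5, sox2, sox3, sox4a and sox11a the signs were mixed. Near sox5, which was higher, strap was called lower by edgeR (log2 fold change -0.70, adjusted p = 0.0388). The counts were made on another assembly, Zv9.

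**Figure D2:**
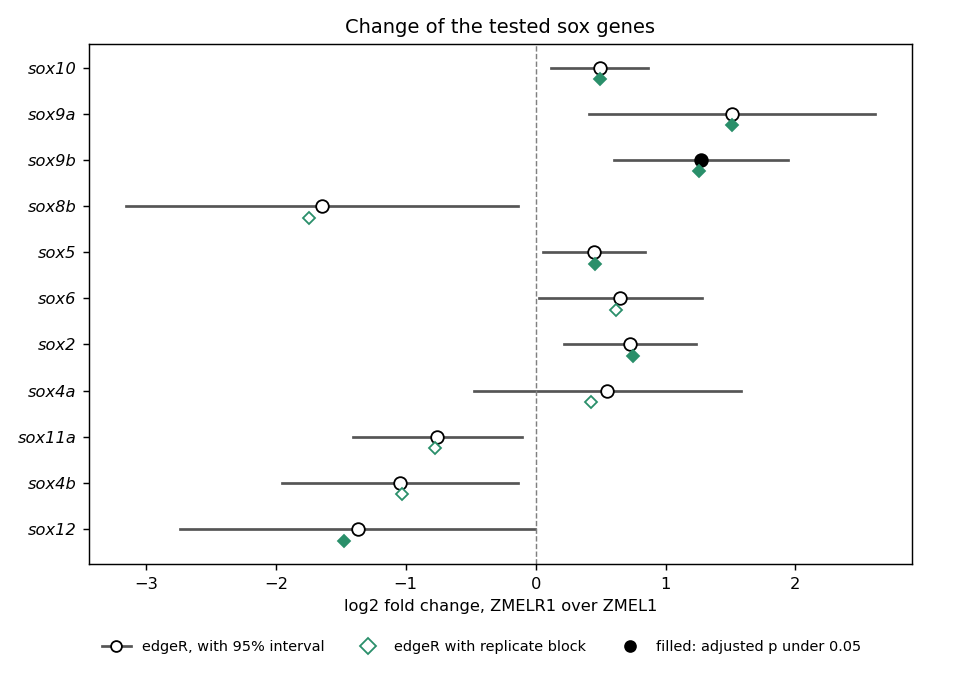
Log2 fold change of ZMELR1 over ZMEL1 for the 9 tested members and for sox4b and sox12, with circles and 95% intervals from edgeR without a block, and diamonds from the fit with the replicate block. Filled symbols mark an adjusted p under 0.05. Without the block sox9b alone is filled, and with it sox10, sox9a, sox9b, sox5, sox2 and the lower sox12 are filled.

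Both SoxD members, which cooperate with Sox9 in cartilage and modulate Sox10 in melanocytes, were higher on average in ZMELR1. Levels of sox5 were 117, 149 and 129 CPM in ZMEL1 and 171, 202 and 168 CPM in ZMELR1. The lines did not overlap, and replicate 2 was highest in both of them. For sox5 the log2 fold change was 0.45 ± 0.16 (SE), or 1.37 times, with an adjusted p of 0.152 in edgeR and 0.0296 with the replicate block.

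Levels of sox6 were 33.3, 45.0 and 34.2 CPM in ZMEL1 and 67.2, 70.9 and 38.8 CPM in ZMELR1. The third ZMELR1 library lay below the second ZMEL1 library, so the lines overlapped. The log2 fold change of 0.65 ± 0.26 (SE) was not called (adjusted p = 0.183), nor was it with the block (0.0536). Without ZMELR1 replicate 3 the log2 fold change was 0.88 and passed the threshold in edgeR (adjusted p = 0.0421). The differences between libraries of the same number were 1.01, 0.65 and 0.18.

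Of the SoxB members, sox2, a factor of neural stem cells that is also found in Schwann cell precursors, was measured well. It stood at 60.1, 40.5 and 39.1 CPM in ZMEL1 and at 88.0, 73.2 and 70.0 CPM in ZMELR1. The lines did not overlap, and replicate 1 was highest in both. This was a log2 fold change of 0.73 ± 0.21 (SE), or 1.66 times, with an adjusted p of 0.0939 in edgeR and 0.0116 with the replicate block. Its relative sox3, which marks early neural tissue, was counted only 10, 6 and 9 times in ZMEL1 and 7, 9 and 8 times in ZMELR1, and a difference was not detectable at this depth.

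The SoxC members, which act in differentiating neurons and mesenchyme, differed in direction. Transcripts of sox4a were at 356, 278 and 495 CPM in ZMEL1 and at 394, 321 and 940 CPM in ZMELR1. Replicate 3 was the highest library of each line, and the lines overlapped. Its log2 fold change of 0.55 ± 0.43 (SE) was not called (adjusted p = 0.465), and without ZMELR1 replicate 3 it was -0.07. In that library, in which sox4a was highest, the summed proliferation genes were lowest (931 CPM), and their part in the result was not tested.

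Levels of sox11a were 16.5, 13.0 and 11.3 CPM in ZMEL1 and 6.76, 6.64 and 10.8 CPM in ZMELR1. The lines did not overlap, though the third libraries, at 11.3 and 10.8 CPM, lay close to each other. Its log2 fold change of -0.76 ± 0.27 (SE) was not called (adjusted p = 0.148, and 0.0766 with the block). The differences between libraries of the same number were -1.28, -0.97 and -0.06, so that the third pair hardly differed.

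**Figure D3:**
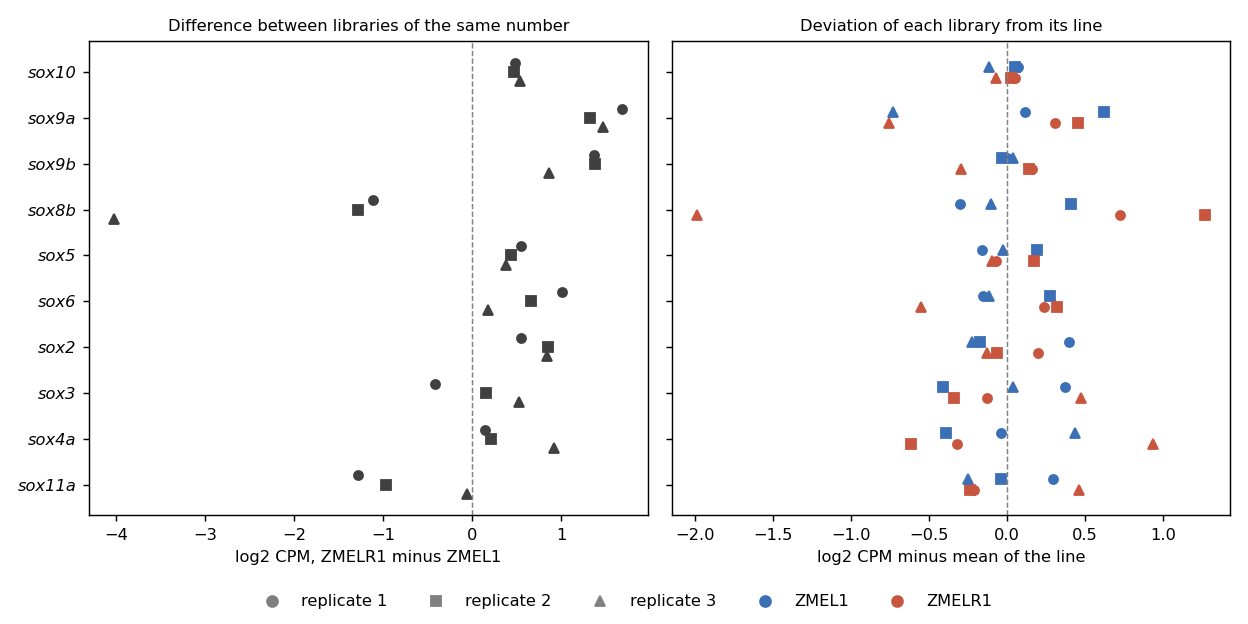
Left, log2 CPM of ZMELR1 minus ZMEL1 for libraries of the same replicate number. Right, each library's log2 CPM minus the mean of its own line. Marker shape gives the replicate number and color the line. The 3 differences of sox10 lie together at 0.47 to 0.54, whereas those of sox6 spread from 0.18 to 1.01 and those of sox11a from -1.28 to -0.06, and replicate 3 is the high sox4a library of both lines.

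Log2 CPM moved the same way in all 3 replicate numbers for 7 members that were higher and 2 that were lower, beside 63% of all tested genes (32.4% higher and 30.7% lower). Among the lower ones is sox8b, which passed the filter only with its ZMEL1 libraries and so lends this count no support. With both libraries numbered 3 left out, 0 members were called higher and 1 lower (sox11a, adjusted p = 0.0467), in a fit that called 489 of all tested genes higher and 500 lower. With the block added to those 4 libraries, 6 were called higher and 2 lower (sox8b and sox11a), in a fit that called 3935 of all tested genes higher and 4392 lower. By comparison, edgeR on all 6 libraries without the block called 600 and 444. Shares of all tested genes were not computed for the fits without the libraries numbered 3, so their member counts are a description only.

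The other sox genes added little. Of 18 listed, 15 had a row and 2 passed the filter, and the 13 that did not had at most 20 counts in any library, with sox1b and sox11b at 0 in all 6. The second SoxC copy sox4b stood at 2.79, 2.82 and 1.37 CPM in ZMEL1 and at 0.804, 1.24 and 1.34 CPM in ZMELR1, with no overlap between the lines. Its log2 fold change was -1.04 ± 0.38 (SE) and was not called (adjusted p = 0.152). The log2 ratio of sox4b to sox4a differed by -1.43 between the lines (exact two-sided permutation test, p = 0.2, adjusted p = 0.4). Between libraries of the same number it differed by -1.94, -1.38 and -0.96, lower in all 3 pairs (exact sign-flip permutation test over pairs, p = 0.25, the smallest that 3 pairs allow). A further SoxC gene, sox12, was counted 34, 34 and 18 times in ZMEL1 and 15, 17 and 1 times in ZMELR1. Its log2 fold change of -1.37 ± 0.57 (SE) had an adjusted p of 0.198, and of 0.0415 with the block. Like sox8b, it passed the filter through its ZMEL1 libraries, with 2 of the ZMELR1 libraries at the filter's level.

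For the 3 members of highest CPM, the tested genes whose centered log2 CPM lay closest over the 6 libraries were found by the mean absolute difference, passing over rows that carry a clone name. For sox10 they were atf7b (0.0301), cmtr2 (0.0306) and bag5 (0.0309), where the median over all genes was 0.396. For sox4a they were smpdl3a (0.0746), prss16 (0.0748) and ror2 (0.0992), which ranked 3, 4 and 6 among all tested rows, where the median was 0.545. For sox5 they were kbtbd7 (0.0345), atp2b4 (0.0459) and gli2a (0.0502), which ranked 1, 2 and 5, where the median was 0.400. None of these 9 genes was called. The 6 points share depth and scaling, so likeness is a description.

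Genes that lie downstream of or beside Sox10 were then read in the same fit. The cassette and endogenous mitfa together stood at 537, 429 and 592 CPM in ZMEL1 and at 949, 892 and 832 CPM in ZMELR1. The lines did not overlap, and the log2 fold change was 0.78 ± 0.19 (SE), with an adjusted p of 0.0590 in edgeR and 0.0196 with the block. Transcripts of dct, the dopachrome tautomerase that Sox10 activates together with Mitf in mouse, were at 1.97, 2.97 and 8.76 CPM in ZMEL1 and at 1.13, 1.41 and 25.8 CPM in ZMELR1. Replicate 3 was the highest library of both lines, and the log2 fold change of 1.03 fell to -1.84 without ZMELR1 replicate 3 and was not called in either case (adjusted p = 0.631 and 0.157).

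In the list of melanocyte genes 3 of 14 tested were called higher and 1 lower, with a median log2 fold change of 1.05. With the block 9 were called higher and 1 lower. For comparison, edgeR called 3.62% of all 16589 tested genes up in ZMELR1 and 2.68% down. Fitting the replicate number as a block brought these shares to 12.9% up and 12% down. The same shares are the background for the lists that follow. The pigment cell ion exchanger slc24a5 was at 0.391, 0.329 and 0.229 CPM in ZMEL1 and at 5.75, 7.17 and 1.76 CPM in ZMELR1 (log2 fold change 3.96, adjusted p = 0.0120). Its adjusted p was at most 0.0552 with a library left out, the call being lost without any one of the ZMEL1 libraries. The melanosome channel gene oca2 fell from 2.89, 4.12 and 7.35 CPM to 0.804, 0.848 and 0.990 CPM (log2 fold change -2.45, adjusted p = 0.0176), and lost its call without ZMELR1 replicate 1 or 2 (at most 0.0793). The receptor kita rose by a log2 fold change of 1.06 (adjusted p = 0.0350) but was called in 1 of the 6 leave-one-out fits, that without ZMELR1 replicate 3. The melanosomal enzyme gene tyrp1b, named after its values were seen, rose by 1.98 (adjusted p = 0.0417) and was called in 1 of them, that without ZMEL1 replicate 2.

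In the neural crest list 2 of 16 tested genes were called higher and 0 lower, with a median log2 fold change of 0.84, and with the block 7 were higher. Among these 7, msx1b and twist1b passed the filter only with their ZMELR1 libraries. All 3 of those reached its level, against 1 and 2 of the ZMEL1 libraries. Such genes enter the count and the median through the line where they are high. The 2 called without the block were the AP-2 factors tfap2c (log2 fold change 1.17, adjusted p = 0.0189) and tfap2e (1.33, adjusted p = 0.0489), which act in crest and melanocytes. The first lost its call without ZMEL1 replicate 1 or 2 or ZMELR1 replicate 1 (at most 0.0869), and the second without 5 of the 6 libraries, keeping it without ZMEL1 replicate 3 (0.0218 there and at most 0.169 elsewhere). The crest factor gene foxd3 had 0 counts in all 6 libraries, and crestin was not analysed here.

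In the list for glia and peripheral nerve 2 of 16 tested genes were called higher and 1 lower, with a median log2 fold change of 0.15. The myelin gene mbpa, a target of Sox10 in mouse glia, rose from 0.391, 0.343 and 0.643 CPM to 2.33, 1.86 and 2.03 CPM. Its log2 fold change was 2.16 with an adjusted p of 0.0140 in edgeR. The call was lost without ZMEL1 replicate 1 or 2 or ZMELR1 replicate 1 (at most 0.0690). The other copy, mbpb, was more abundant, averaging 18.8 CPM in ZMEL1 and 19.6 CPM in ZMELR1. Its log2 fold change of 0.06 was not called (edgeR, adjusted p = 0.905). The myelin gene plp1a was not called either (-0.04, adjusted p = 0.941). The Schwann cell factor pou3f1 rose by a log2 fold change of 3.69 (adjusted p = 0.0349) and kept its call in 1 leave-one-out fit, that without ZMELR1 replicate 3. The lipid carrier gene fabp7a, a marker of radial glia and Schwann cell precursors, fell from 3028, 1549 and 2271 CPM to 634, 321 and 326 CPM, a log2 fold change of -2.42 with an adjusted p of 0.0157, and 0.0529 without ZMEL1 replicate 1. Since fabp7a supplies most of the list's counts, the summed level of the list fell from between 1664 and 3149 CPM to between 457 and 782 CPM while 2 of its genes rose.

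**Figure D4:**
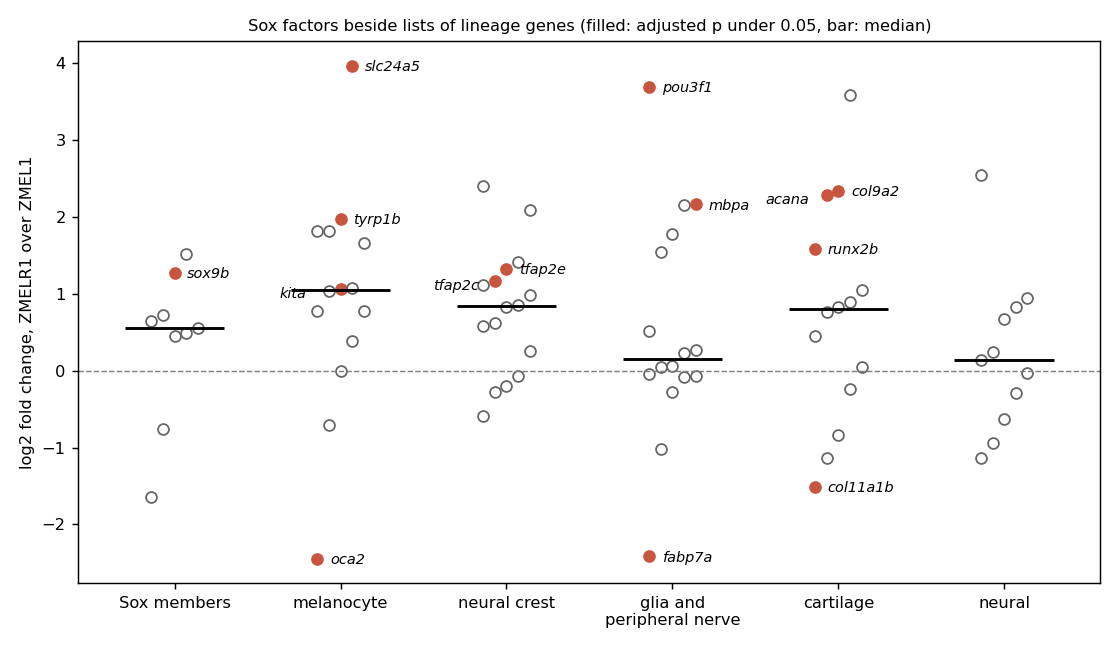
Log2 fold change of ZMELR1 over ZMEL1 for the tested Sox members and for the tested genes of 5 lineage lists, with the median of each as a bar and genes called by edgeR filled and named. Medians are 0.55 for the Sox members, 1.05 for melanocyte, 0.84 for neural crest, 0.15 for glia and peripheral nerve, 0.80 for cartilage and 0.14 for neural genes, against 0.02 over all tested genes.

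In the cartilage list, where Sox9 with Sox5 and Sox6 acts in development, 3 of 14 tested genes were called higher and 1 lower, with a median log2 fold change of 0.80, and with the block 6 were higher. Among these 6, acana and col2a1b passed the filter only with their ZMELR1 libraries. All 3 of those reached its level, against 0 and 2 of the ZMEL1 libraries. The skeletal factor runx2b stood at 7.31, 10.1 and 11.1 CPM in ZMEL1 and at 23.7, 27.5 and 34.3 CPM in ZMELR1 (log2 fold change 1.58, adjusted p = 0.0127, and 0.0502 without ZMEL1 replicate 2). The collagen gene col9a2 stood at 53.9, 41.8 and 73.4 CPM in ZMEL1 and at 385, 350 and 122 CPM in ZMELR1 (2.34, adjusted p = 0.0278). It kept its call in 1 leave-one-out fit, that without ZMELR1 replicate 3. The aggrecan gene acana was scarce: the ZMEL1 libraries held 5, 7 and 7 of its counts, and those of ZMELR1 held 25, 30 and 29. It passed the filter through its ZMELR1 libraries alone, so its call (log2 fold change 2.29, adjusted p = 0.0285) supports nothing about the list, and it was lost without 4 of the 6 libraries and kept without ZMELR1 replicate 2 or 3. The collagen gene col11a1b, named after its values were seen, fell by 1.51 on the log2 scale (adjusted p = 0.0426) and kept its call only without ZMELR1 replicate 3. The classical Sox9 target col2a1a did not pass the filter, at no more than 0.0858 CPM in any library.

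In the neural list 0 of 11 tested genes were called by edgeR, 0 by DESeq2 and 0 at an unadjusted p under 0.05, and the median log2 fold change was 0.14. With the block 1 was called higher and 1 lower. The other lists had more such calls. DESeq2 called 6 melanocyte genes higher and 1 lower, and 8 crest genes higher and 0 lower, beside 6.45% and 5.99% of the 18613 genes it tested. It filtered genes differently from edgeR, so the number of list genes it tested can differ. At an unadjusted p under 0.05 in edgeR, 7 melanocyte genes were higher and 1 lower, and 10 crest genes higher and 0 lower. For glia it was 3 and 1, and for cartilage 6 and 2, beside 13.2% and 11.1% of all tested genes. The crest count includes msx1b and twist1b, and the cartilage count acana and col2a1b. These passed the filter only with their ZMELR1 libraries, the line where they are high, so they lend the counts no support.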

How the data were processed

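RNA of 3 ZMEL1 and 3 ZMELR1 libraries was compared. Reads had been mapped on Zv9 by TopHat2, and the authors deposited whole-number HTSeq counts per gene name, and no strand setting is given in the sources used here. Whether reads of overlapping genes were kept apart is therefore not known. Counts were analysed in R 4.3.3 with edgeR 4.0.16: filterByExpr (least count 10, least total 15), TMM, quasi-likelihood F test, p-values adjusted by Benjamini-Hochberg across 16589 genes, called at 0.05. Both quasi-likelihood fits that the program offers were run and seen before one was chosen. The newer one is reported, to match an earlier analysis of the same table, and the older one, the default here, is an alternative. The design had not said which.

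The replicate numbers paired libraries: deviations from the line means correlated at 0.557, 0.588 and 0.509 for the same number, and at -0.504 to -0.0285 for different numbers. The negative values are not separate evidence, because deviations from a line's own mean cancel out within that line. What the numbers share is not given in the sources used here. Blocked values are printed where a call changes or a count moves by more than 1.5 times.

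Intervals are at 95%, and log2 CPM used a prior count of 2. Alternatives were DESeq2 1.42.0, limma-voom (limma 3.58.1), RLE factors, library size only, other filters, the replicate block and each library left out. Leaving out both libraries numbered 3, the older fit and the copy ratios with libraries left out or paired were added after seeing the data. Tests were tried on simulated counts drawn independently for each library, without the pairing by replicate number, so the trial does not bear on that pairing. The members and lists were chosen with earlier results of these data known. Named genes were every Sox member, other sox genes, mitfa, dct, foxd3, crestin, col2a1a and mbpa, up to 3 called genes of smallest p in each of 5 lineage lists, and the 3 genes nearest in pattern to each of the 3 members of highest CPM. Gene order came from RefSeq's GRCz12tu annotation. Python 3.11.15, numpy 2.4.6, scipy 1.17.1 and matplotlib 3.10.9 were used for ratios and figures.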

Additional observations from a re-analysis of the deposited data

How the results depend on the processing

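The count of Sox members called higher, 1 by edgeR, was 0 with library size only, with a filter of at least 1 count in total and with the older quasi-likelihood fit, 2 with DESeq2 and 5 with the replicate block. It ran from 0 to 3 with each library left out in turn. With both libraries numbered 3 left out it was 0 without the replicate block and 6 with it, and the count called lower, 0 by edgeR, became 1 and 2. Those fits called 489 and 3935 of all tested genes higher, and 500 and 4392 lower. Over all genes the replicate block raised the calls from 600 higher and 444 lower to 2143 and 1984, DESeq2 gave 1201 and 1114, a filter of at least 10 counts in every library gave 294 and 169, and the older fit 562 and 417. Library size only gave 546 and 420, and a filter of at least 1 count in total gave 501 and 411. Leaving out a library gave 172 to 661 higher and 113 to 488 lower. Shares of all tested genes were computed only for edgeR with and without the block, DESeq2 and limma-voom, each on all 6 libraries. The member counts of the other fits are a description only. Without ZMELR1 replicate 3 the log2 fold changes of sox4a, prss16, ror2 and dct (the middle pair chosen for their likeness to sox4a) reversed to -0.0726, -0.0739, -0.0702 and -1.84, and over all libraries left out in turn they reached 0.82, 0.69, 0.88 and 1.90. The log2 fold change of dct was also -0.30 with limma-voom, -0.00501 with the replicate block, and -0.996 and -1.01 without the libraries numbered 3, without and with the block. The log2 ratio of sox9b to sox9a turned from -0.27 to 0.13 without ZMEL1 replicate 3, and ran down to -0.61 without ZMEL1 replicate 2. Paired by replicate number (replicate block) the mean differences of the ratios are the same by construction. The causes were not tested. Of 556 values of 35 genes under these alternatives, 448 kept direction and side of the threshold, 67 lost the call, 33 gained it and 8 reversed. Depth limits sox3, sox8b, sox9a, sox9b and sox12, with at most 10, 48, 430, 126 and 34 counts in a library.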
